A study of Drosophila melanogaster with 12 samples.

Results

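The RNAs of 10 voltage-gated ion channel genes were followed through RNA immunoprecipitation followed by sequencing (RIP-Seq) of the splicing factor Caper in adult *Drosophila melanogaster* heads. They were chosen by gene identifier and comprise *para*, *cac*, *Sh*, *Shab*, *Shal*, *Shaw*, *slo*, *eag*, *sei* and *Hk*, 10 of the 17612 genes in the count table. All 10 passed the filter on low counts in every comparison. The study asked which RNAs come down with Caper. It used 2 antibodies, a monoclonal one against the FLAG tag (FLAG IP) and a polyclonal one against Caper itself (Caper IP). For each antibody 3 IP libraries were made, numbered 4 to 6 for FLAG and 1 to 3 for Caper, and each has an input library of the same number. The 12 libraries carried between 9615414 and 34264177 counts, which were 53.7% to 60.1% of the mapped alignments offered to the counting in the FLAG IPs, 23.6% to 25.2% in the FLAG inputs, 69.3% to 72.4% in the Caper IPs and 22.7% to 26.2% in the Caper inputs.

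All 4 groups (FLAG IP, FLAG input, Caper IP and Caper input) came from heads of the same genotype, labelled Hsp70Gal4 x UASCaperFlag. In these flies Gal4 under a heat shock promoter drives FLAG-tagged Caper, so that every library, the inputs included, comes from flies that overexpressed Caper. All flies were kept at 37°C for 2 h and then overnight at 30°C. The labels give no age or sex, do not say how many heads made 1 library and do not say that the numbers are separate fly collections, so the p-values measure the spread between these libraries, which may be technical. No mock IP is among the 12 libraries, and a value above input is a value relative to head RNA only. The FLAG antibody can reach only the transgenic protein, whereas the Caper antibody can also reach the endogenous one.

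Voltage-gated channels open or close with the membrane potential and shape the action potential. In a fly neuron the sodium channel Para carries the upstroke, potassium channels of the Shaker, Shab, Shal and Shaw families repolarize the membrane, and the calcium channel Cacophony couples the spike to transmitter release. Several of these genes are classic behavioural loci of the fly, among them *Sh*, *slo*, *eag*, *sei* and *para*, and several, such as *para* and *slo*, are known for many alternatively spliced forms.

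The gene models were large, which bears on each comparison that follows. On the dmel_r6.36 annotation of the count table, *para* (FBgn0285944) lies on the minus strand of chromosome X at 16455027 to 16533096, *cac* (FBgn0263111) on the minus strand of X at 11931280 to 11985087 and *Sh* (FBgn0003380) on the minus strand of X at 17924307 to 18063247. *Shab* (FBgn0262593) lies on the plus strand of 3L at 2895017 to 2959579, *Shal* (FBgn0005564) on the minus strand of 3L at 19566851 to 19584568 and *Shaw* (FBgn0003386) on the plus strand of 2L at 3718185 to 3729145. The calcium-activated channel gene *slo* (FBgn0003429) lies on the plus strand of 3R at 24662491 to 24711595. On X, *eag* (FBgn0000535) lies on the plus strand at 14955477 to 15009989 and *Hk* (FBgn0263220) on the minus strand at 10233347 to 10263485, and *sei* (FBgn0003353) lies on the plus strand of 2R at 24047411 to 24053035. Of the 10 genes, 5 are thus X-linked.

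*Sh* spans 138941 bases, of which 22552 are exonic, and *para* spans 78070 bases, of which 16309 are exonic. The shortest of the 10, *sei*, has 3278 exon bases in a span of 5625 bases. Of the 10 genes, 7 have at least 10000 exon bases, and only *Shal* (4606), *Shaw* (5000) and *sei* are shorter. The table lists 44 distinct exons for *para*, 46 for *cac*, 40 for *Sh* and 39 for *slo*, against 10 for *Shal*. RefSeq holds 60 transcripts of *para*, 23 of *slo*, 18 of *cac*, 17 of *Sh* and 3 each of *Shal* and *sei*. The counts are sums over all exons of a gene, so a shift from one spliceform to another leaves no trace in them. No exon of the 10 genes shares a base with an exon of another gene on the same strand, and the counting used strand.

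The inputs give the level of each channel RNA in heads. Levels are in TPM, counts per exon base scaled to the same total in every library, which allows genes to be compared within a library. *Hk*, which encodes the beta subunit that binds Shaker, averaged 73.8 ± 7.76 TPM over the inputs (SD, n = 6). *Sh*, the pore-forming subunit of the fast A-type potassium channel, averaged 72.0 ± 6.64 TPM, and *slo*, the large-conductance potassium channel gated by calcium and voltage, 71.7 ± 6.57 TPM. *para* followed with 67.9 ± 7.07 TPM and *Shal*, the A-type channel of cell bodies and dendrites, with 62.3 ± 2.20 TPM.

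These 5 genes formed the upper group, and neighbours within it overlapped in their ranges. A step came after *Shal*, whose lowest input (59.4 TPM) lay above the highest input of *Shab* (48.0 TPM). *Shab*, the main delayed rectifier, averaged 43.1 ± 3.15 TPM, *cac*, the pore-forming subunit of the presynaptic calcium channel, 41.7 ± 3.53 TPM, and *Shaw*, a potassium channel that sets resting excitability, 40.6 ± 3.27 TPM. The ranges of these 3 genes overlapped, and that of *Shaw* overlapped that of *eag*. *eag*, the founder of the ether-a-go-go potassium channels, averaged 34.1 ± 5.29 TPM, and *sei*, the fly member of the ERG potassium channels, was lowest in all 6 inputs with 21.3 ± 1.38 TPM. The range of *sei* did not reach that of *eag*. The mean of *Hk* stood above 92.0% of all genes in the table and that of *sei* above 72.9%.

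**Figure D1:**
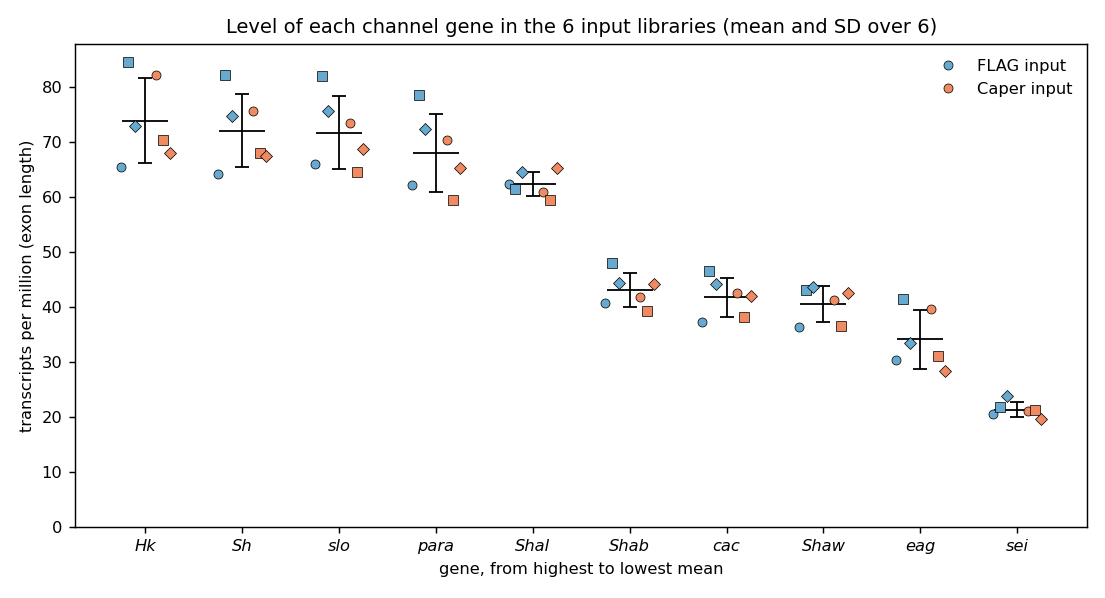
Level of each channel gene in TPM (vertical axis) in the 6 inputs, with genes (horizontal axis) in order of their mean. Points are libraries (circle, square and diamond for inputs 4, 5 and 6 of FLAG, and for 1, 2 and 3 of Caper), and bars give mean and SD over 6. The 5 genes from *Hk* to *Shal* lie between 59.3 and 84.5 TPM, the 4 from *Shab* to *eag* between 28.4 and 48.0 TPM, and *sei* between 19.6 and 23.7 TPM.

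The inputs of both antibodies were alike for the channels. The log2 difference of FLAG inputs against Caper inputs lay between -0.05 (*Hk*) and 0.06 (*para*) for the 10 genes. In edgeR's quasi-likelihood test none of the 10 differed, none had an unadjusted p below 0.05, and 0% of the 9944 genes tested were called in either direction. The 95% intervals bound how far apart the inputs could be. For *Shab* the interval ran from -0.17 to 0.22 on the log2 scale, and for *eag*, the most variable of the genes, from -0.26 to 0.32. DESeq2 called none of the 10 either.

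Markers of the cell types of a head were found in the libraries. All 5 neuron markers, all 5 photoreceptor markers, all 5 glia markers and all 5 muscle markers were above 0 in every library. The neuron markers (*elav*, *nSyb*, *Syt1*, *brp* and *Syn*) summed to between 1388 and 1572 TPM in the FLAG inputs and between 1358 and 1479 TPM in the Caper inputs. The fat body markers, which include the yolk protein genes, varied most, from 4776 to 9713 TPM in the FLAG inputs and from 3479.7 to 12161 TPM in the Caper inputs. The 4 germline markers found in the table summed to at most 14.5 TPM in any library. All 4 were above 0 in every input and every Caper IP, and 3 of them in every FLAG IP. A value above 0 alone thus does not show that a cell type was present. A head is a mixture of cells, and in bulk RNA fewer cells of a type and less RNA per cell cannot be told apart.

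In the FLAG IP, *Shab* was the channel RNA that stood out. *Shab* and *Shaw* rose against the FLAG inputs, and none of the 10 fell, whereas 19.5% of the 10476 genes tested rose and 20.8% fell. A count of 2 among 10 is close to that background share. The median log2 fold change of the 10 was 0.12, against 0.00 for all genes tested. With the replicate number as a block, which pairs each IP with its own input as the labels do, 5 genes rose (*para*, *Shab*, *Shal*, *Shaw* and *eag*) and *slo* fell, against background shares of 29.6% and 29.5%.

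*Shab* had 442, 515 and 507 CPM (counts scaled to a common library total, with TMM factors) in FLAG IPs 4, 5 and 6, against 260.5, 281 and 264 CPM in the FLAG inputs of the same numbers. The lowest IP lay well above the highest input. The log2 fold change was 0.87 (SE 0.10, 95% interval 0.65 to 1.10), a 1.83-fold enrichment with an edgeR adjusted p of 0.00065. It stood above 89.7% of all genes tested. The call held in each of the 18 alternatives run, with a log2 fold change between 0.73 and 0.97 and an adjusted p of at most 0.00786. No other gene of the 10 had an interval that reached 0.65, the lower bound of *Shab*: the next highest upper bound was 0.57, for *eag*.

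*Shaw* had 132, 125 and 139 CPM in the FLAG IPs, against 102, 111 and 114 CPM in the FLAG inputs. The groups did not overlap, and the log2 fold change was 0.28 (SE 0.09, adjusted p = 0.0359). The call was thin. It was lost without FLAG IP 4 (0.0701), FLAG IP 6 (0.112), FLAG input 4 (0.124), FLAG input 5 (0.0651) or FLAG input 6 (0.0752), and was kept without FLAG IP 5 (0.0326). These values are adjusted p from edgeR. With a correction for gene length, described after the comparisons, the log2 fold change was 0.14 (adjusted p = 0.202).

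*para* had 704, 702 and 784 CPM in the FLAG IPs, against 569, 658 and 618 CPM in the FLAG inputs. Every IP lay above every input, with a log2 fold change of 0.26 (SE 0.11) and an adjusted p of 0.0861 in edgeR without the block and 0.0134 with it. *Shal* had 188, 171 and 177 CPM in the FLAG IPs, against 162, 145 and 156 CPM in the FLAG inputs, again without overlap. Its log2 fold change was 0.23 (SE 0.08, edgeR adjusted p = 0.0649 without the block and 0.0113 with it). *eag* had 213, 248 and 258 CPM in the FLAG IPs, against 182, 227 and 186 CPM in the FLAG inputs. Here the groups overlapped, because IP 4 lay below input 5, yet each IP lay above its own input. For *eag* the log2 fold change was 0.28 (SE 0.12, edgeR adjusted p = 0.101 without the block and 0.00651 with it).

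*slo* went the other way. It had 331, 333 and 367 CPM in the FLAG IPs, against 377, 428 and 402 CPM in the FLAG inputs, and all 3 IPs lay below all 3 inputs. The log2 fold change was -0.22 (SE 0.10), with an edgeR adjusted p of 0.112 without the block and 0.0263 with it. The remaining 4 genes stayed near their inputs, with log2 fold changes of 0.02 for *cac* (95% interval -0.21 to 0.25), -0.05 for *Sh* (-0.30 to 0.21), -0.05 for *sei* (-0.26 to 0.17) and 0.00 for *Hk* (-0.24 to 0.24), and for each the IPs and inputs overlapped.

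In the Caper IP no channel RNA rose, and *cac* and *slo* fell. Of the 10778 genes tested, 6.33% rose and 7.53% fell. Of the 10 genes, 8 had a log2 fold change below 0, with a median of -0.27 for the 10 against 0.03 for all genes tested. Among all genes tested, 53.1% were above 0. With the replicate block 5 genes fell (*para*, *cac*, *Sh*, *slo* and *eag*) and none rose, against background shares of 14.8% and 15.8%.

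*cac* had 196, 180.1 and 188 CPM in Caper IPs 1, 2 and 3, against 269, 256 and 289 CPM in the Caper inputs. The IPs were the lower group with a clear gap. The log2 fold change was -0.52 (SE 0.08, 95% interval -0.70 to -0.33), or 0.70 times the input level, with an edgeR adjusted p of 0.0130. The call was lost without Caper IP 2 (adjusted p = 0.0589), Caper input 1 (0.0662) or Caper input 2 (0.0788). *slo* had 318, 283 and 281 CPM in the Caper IPs, against 394, 369 and 403 CPM in the Caper inputs, also without overlap. Its log2 fold change was -0.39 (SE 0.08, adjusted p = 0.0309). The call on *slo* was lost without any of Caper IP 2 (0.106), Caper IP 3 (0.0912), Caper input 1 (0.124), Caper input 2 (0.122) or Caper input 3 (0.0985), and was kept without Caper IP 1 (0.0126).

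*eag* showed how much the pairing mattered. It had 178, 131 and 124 CPM in the Caper IPs, against 222, 186 and 174 CPM in the Caper inputs. Library pair 1 was high on both sides, so that IP 1 lay above input 3 while each IP lay below its own input. The log2 fold change was -0.42 (SE 0.16, edgeR adjusted p = 0.137) without the block, and -0.42 (SE 0.07, adjusted p = 0.00755) with it. The fat body markers were also high in pair 1, at 28519 TPM in Caper IP 1 and 12161 TPM in Caper input 1, the highest of the 3 libraries of each group. The part of this in the *eag* result was not tested.

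*para* had 495, 471 and 491 CPM in the Caper IPs, against 607, 546 and 614 CPM in the Caper inputs. The groups did not overlap, and the log2 fold change was -0.26 (SE 0.08, edgeR adjusted p = 0.0866 without the block and 0.0377 with it). *Sh* had 780.1, 676 and 587 CPM in the Caper IPs, against 902, 864 and 878 CPM in the Caper inputs. All 3 IPs lay below the inputs, but they were spread wider than the inputs, and the log2 fold change was -0.36 (SE 0.12, edgeR adjusted p = 0.0879 without the block and 0.0264 with it).

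*sei* had 31.9, 29.4 and 31.5 CPM in the Caper IPs, against 36.4, 39.4 and 37.2 CPM in the Caper inputs, without overlap. Its log2 fold change of -0.27 (SE 0.08) passed neither without the block (edgeR adjusted p = 0.0812) nor with it (0.0578). *Hk* had a log2 fold change of -0.21 (95% interval -0.51 to 0.09), and its IPs and inputs overlapped. The remaining 3 potassium channel genes were centred on their inputs, with log2 fold changes of -0.03 for *Shab* (95% interval -0.24 to 0.17), 0.09 for *Shal* (-0.15 to 0.33) and 0.00 for *Shaw* (-0.21 to 0.21).

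**Figure D2:**
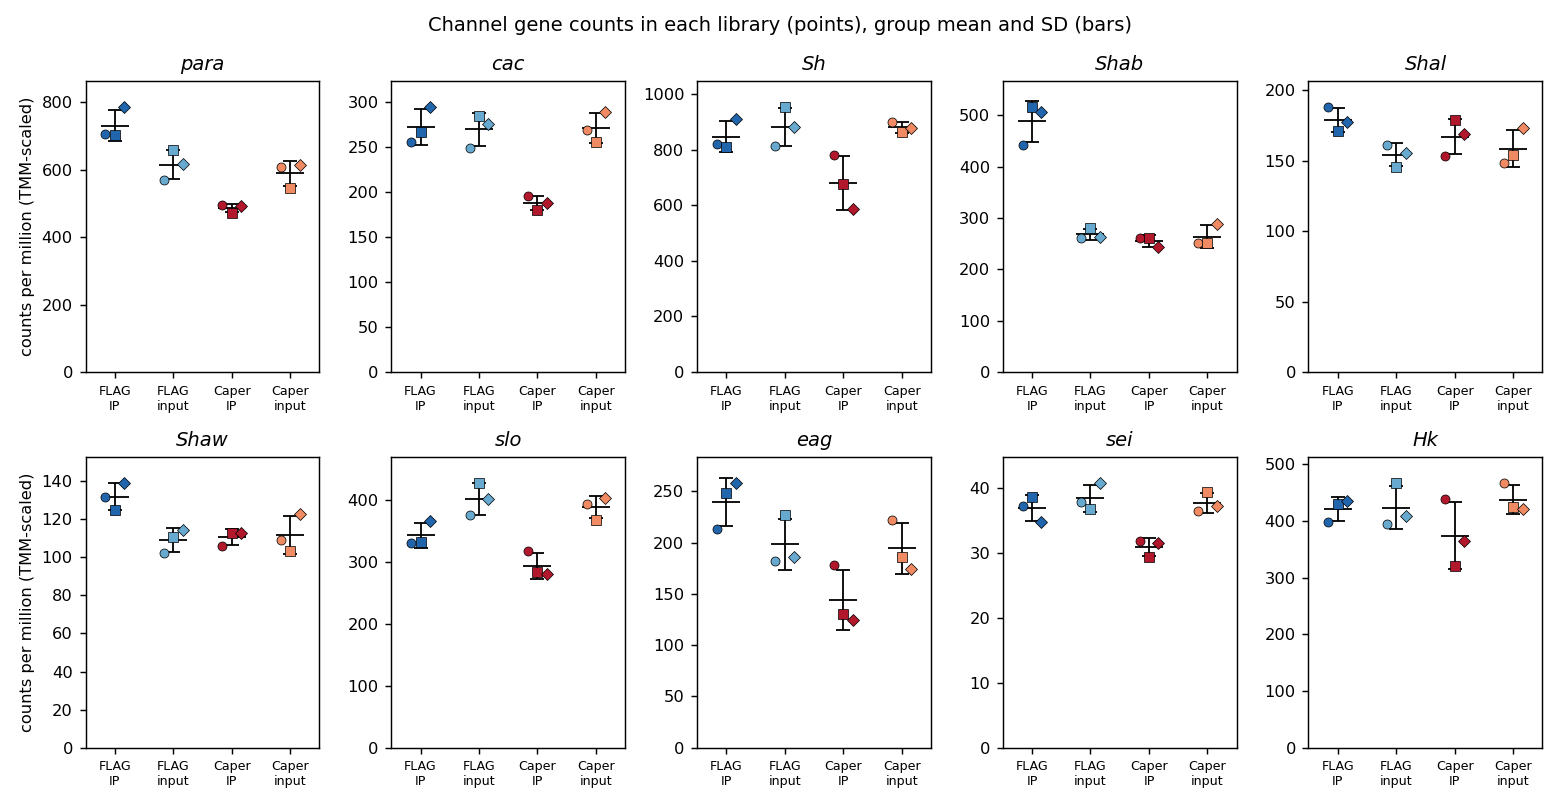
TMM-scaled CPM (vertical axes, from 0) of each channel gene in the 12 libraries, by group. Points are libraries (circle, square and diamond for numbers 4, 5 and 6 of FLAG, and 1, 2 and 3 of Caper) and bars give mean and SD (n = 3). *Shab* is separated only in the FLAG IP (442 to 515 CPM), and *cac* only in the Caper IP (180.1 to 196 CPM).

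**Figure D3:**
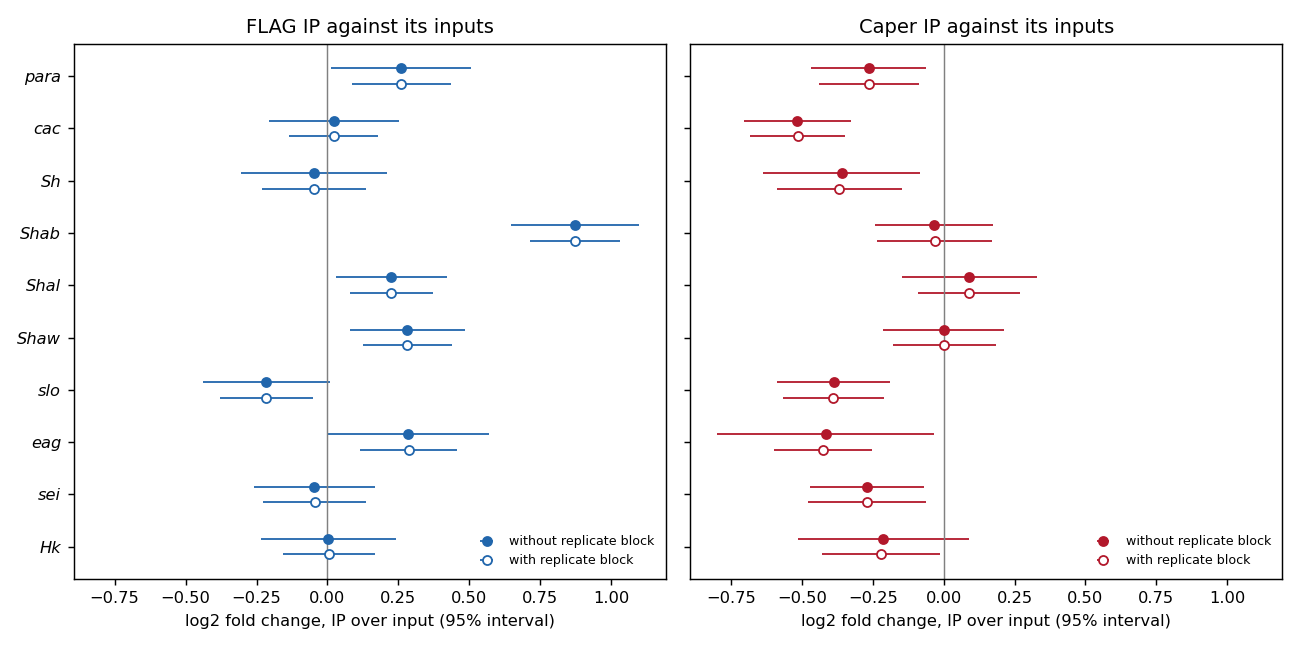
Log2 fold change of IP over input (horizontal axis) with its 95% interval for the 10 genes, FLAG IP on the left and Caper IP on the right, without the replicate block (filled) and with it (open). *Shab* lies at 0.87 in the FLAG IP and at -0.03 in the Caper IP, and 8 of 10 genes lie below 0 in the Caper IP.

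The difference between the IPs asks whether a channel RNA was more enriched with one antibody than with the other. The FLAG effect minus the Caper effect was above 0 for all 10 genes, with a median of 0.30 against -0.04 for all genes tested. Among all genes tested, 45.6% were above 0. Only *Shab* passed the test of the difference itself (0.91, SE 0.12, 95% interval 0.64 to 1.18, edgeR adjusted p = 0.0155), where 0.817% of 11012 genes were called higher and 0.145% lower. In its 3 FLAG pairs the log2 ratio of IP to input of *Shab* was 0.76, 0.88 and 0.94, and in its 3 Caper pairs 0.06, 0.06 and -0.25. The call depended on single libraries. The adjusted p was 0.0587 without Caper IP 3, 0.0507 without Caper input 3, 0.0543 without FLAG IP 5, 0.0559 without FLAG IP 6, 0.0823 without FLAG input 4 and 0.0859 without FLAG input 6.

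With the replicate block 4 genes differed, where 6.62% of all genes were called higher and 5.44% lower. They were *Shab* (0.91, adjusted p = 0.00208), *eag* (0.71, adjusted p = 0.00489), *cac* (0.54, adjusted p = 0.00885) and *para* (0.52, adjusted p = 0.0129). Without the block the edgeR adjusted p was 0.149 for *eag*, 0.0631 for *cac* and 0.0751 for *para*. The other 6 genes had differences between 0.14 (*Shal*) and 0.31 (*Sh*) that did not pass in either fit.

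Gene length moved with these results. Among the genes tested, those with at least 10000 exon bases had a median log2 fold change of 0.11 in the FLAG IP (n = 271), against -0.01 for the others. In the Caper IP the same length class had a median of -0.19 (n = 271), against 0.04 for the others. For the difference between the IPs the medians were 0.30 (n = 272) and -0.05. Of the 10 channel genes, 7 belong to that class, and the channel medians of 0.12, -0.27 and 0.30 were near those of the class. Across all genes tested the Spearman correlation of the difference with exon length was 0.325. Genes are not independent replicates, and no p is given.

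When a trend with exon length was removed within each library, the channels came closer to the rest. The median of the 10 was then -0.01 for FLAG, -0.06 for Caper and 0.15 for their difference. *Shab* still rose in the FLAG IP (0.73, edgeR adjusted p = 0.000484), and *slo* now fell there (-0.35, adjusted p = 0.0117), as it did with the block alone. In the Caper IP *sei*, the shortest of the 10, fell (-0.34, adjusted p = 0.0363), while *cac* (-0.33, adjusted p = 0.0603) and *slo* (-0.24, adjusted p = 0.0725) no longer passed. *para* moved to -0.02 and *Sh* to -0.06 there. Of all genes tested, the length-corrected fit called 19.6% higher and 21.5% lower with FLAG, and 5.89% higher and 7.78% lower with Caper.

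With length correction and replicate block together, *Shab* rose (adjusted p = 4.91e-07) and *slo* fell (adjusted p = 0.000330) in the FLAG IP, and *cac* (0.0100), *eag* (0.0188), *sei* (0.0219) and *slo* (0.0340) fell in the Caper IP. Between the IPs the difference was then called for *Shab* (0.59, adjusted p = 0.0122) and *eag* (0.41, adjusted p = 0.0210). Without the block the length-corrected difference of *Shab* was 0.59 (adjusted p = 0.0713), and no channel passed. The differences of *slo* (-0.11), *Hk* (-0.08) and *Sh* (-0.07) were below 0 after length correction, so that a difference above 0 for all 10 genes holds only without it.

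**Figure D4:**
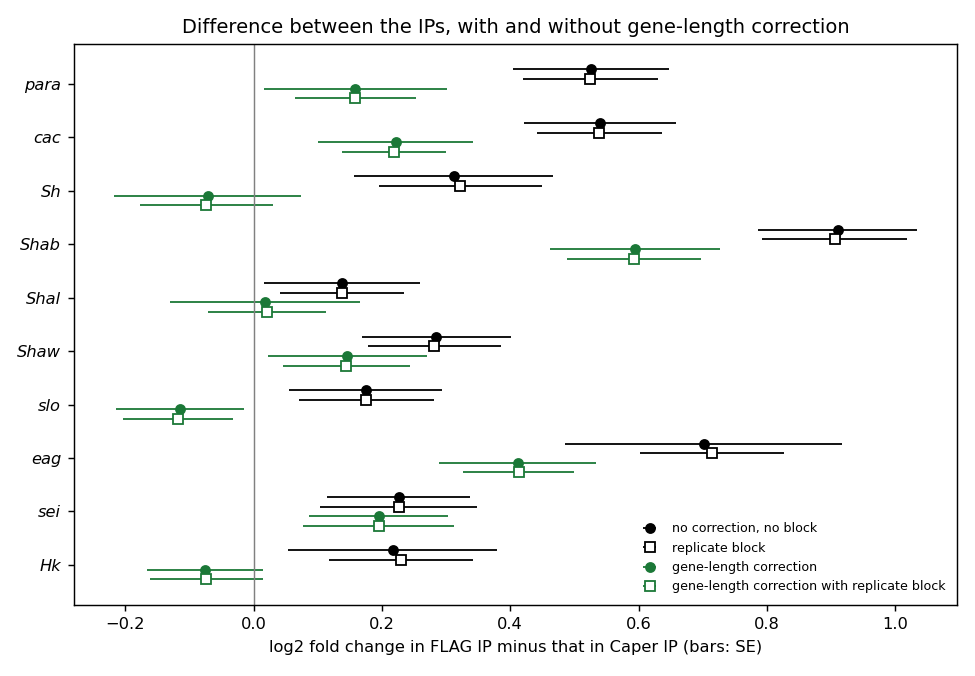
FLAG IP effect minus Caper IP effect on the log2 scale (horizontal axis, bars give SE) for the 10 genes, without (black) and with (green) gene-length correction, each without (circles) and with (squares) the replicate block. All 10 black points lie above 0. Correction takes *Shab* to 0.59 and *Sh*, *slo* and *Hk* below 0.

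**Figure D5:**
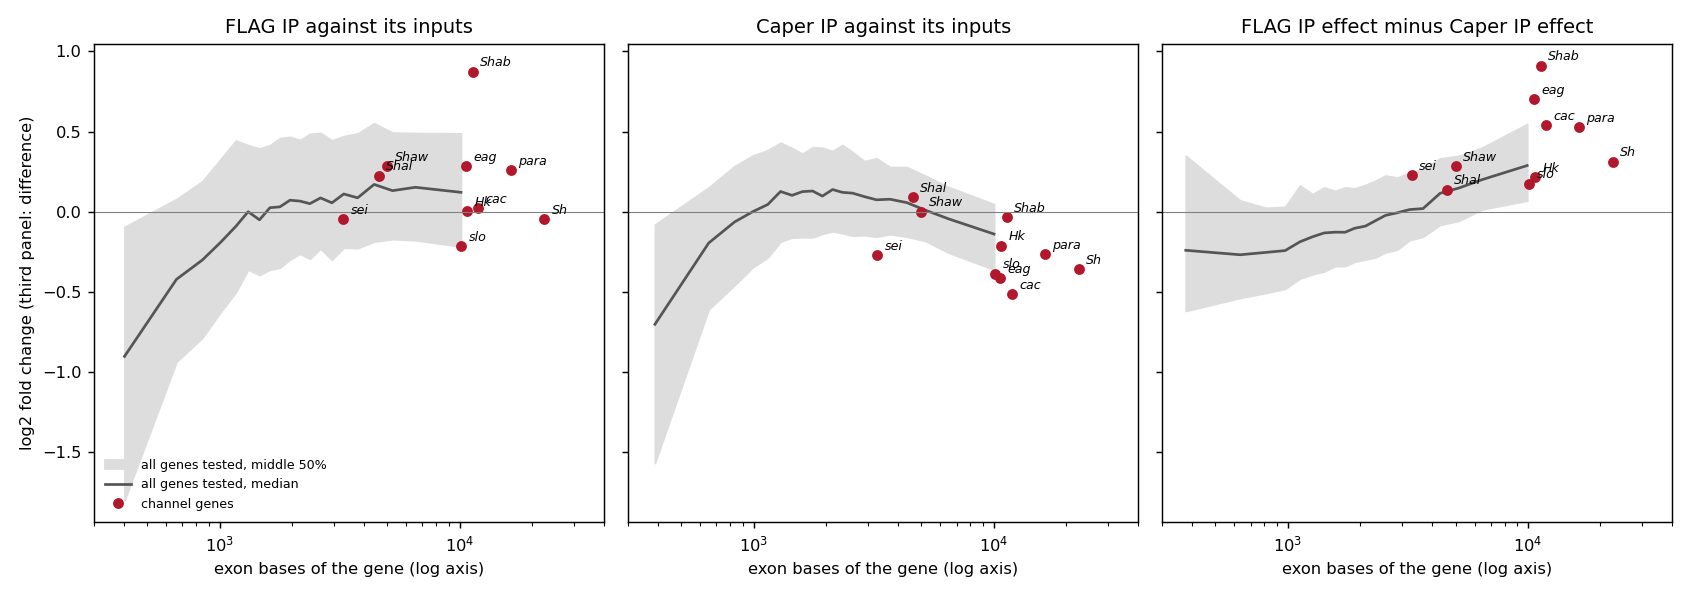
Log2 fold change (vertical axis) against exon bases (horizontal log axis) for the FLAG IP, the Caper IP and their difference. The line and band are the median and middle 50% of all genes tested in 20 length bins, and points are the 10 channel genes. *Shab* is the one channel above the band of its length in the FLAG IP.

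The TMM scaling also sets where 0 lies. With scaling by library size only, the median of all genes moved to 0.18 in the Caper IP, and the median of the 10 to -0.12. There *cac* was the one channel that fell, and 5 channels rose in the FLAG IP. That scaling called 4.95% of all genes tested lower with Caper and 24.1% higher with FLAG. The median of all genes was 0.09 in the FLAG IP with it, so part of these rises is shared by all genes. Of the 5 photoreceptor markers, *norpA*, *ninaC* and *inaD* fell in the FLAG IP and none rose (median log2 fold change -0.55). With Caper *norpA* alone fell (-0.60, edgeR adjusted p = 0.0204), and the median of the 5 was -0.36. *ninaC* (-0.42) and *inaD* (-0.36) were below 0 there without passing. The rhodopsin gene *ninaE* (0.20) and the channel gene *trp* (0.18) were above 0 without passing. With the replicate block *norpA*, *ninaC* and *inaD* were called lower with Caper, and 4 of the 5 with FLAG. That fit called 14.8% of all genes tested lower with Caper and 29.5% with FLAG. The 5 photoreceptor markers summed to 32178 to 35962 TPM in the FLAG IPs and 31680.1 to 32571 TPM in the FLAG inputs, and 43727 to 56361 TPM in the Caper IPs and 30724 to 35653 TPM in the Caper inputs. The share of all counts taken by the 10 most abundant genes ran from 9.52% to 10.03% in the FLAG IPs and from 14% to 16.4% in the FLAG inputs, and from 8.82% to 9.83% in the Caper IPs and from 14.5% to 18.3% in the Caper inputs.

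Neuron markers were mixed. The 5 markers had a median log2 fold change of 0.12 with FLAG and -0.24 with Caper, next to 0.12 and -0.27 for the channels. Among them *brp*, which encodes the active zone scaffold Bruchpilot, rose in the FLAG IP (95% interval of the log2 fold change 0.71 to 1.29, edgeR adjusted p = 0.00106), and *Syn*, which encodes Synapsin, fell in the Caper IP (-0.43, adjusted p = 0.0250). *elav* (-0.06 with FLAG and -0.24 with Caper), *nSyb* (0.23 and 0.30) and *Syt1* (0.12 and -0.28) passed in neither IP. With Caper *nSyb* and *brp* (0.14) were thus above 0, where 8 of the 10 channels were below. With the replicate block *nSyb* was called higher in both IPs (edgeR adjusted p = 0.0335 with FLAG and 0.0380 with Caper) and *Syt1* lower in the Caper IP (0.0426), and with length correction *brp* was called higher there too (0.34, adjusted p = 0.0452) and *Syn* lower in the FLAG IP (-0.29, adjusted p = 0.0279). The neuron markers summed to between 2420 and 2689 TPM in the FLAG IPs and between 1388 and 1572 TPM in the FLAG inputs, and to between 1968 and 2259 TPM in the Caper IPs and between 1358 and 1479 TPM in the Caper inputs. These sums are per exon base and carry no TMM scaling, so they are not on the scale of the fold changes. *Shab*, for example, averaged 44.4 TPM in the FLAG inputs and 119 TPM in the FLAG IPs, against 268 and 488 CPM. The part of the neuron markers in the channel results was not tested.

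Other channel pores also fell in the Caper IP. Of 10 further pore-forming genes, 6 fell and none rose there, where 7.53% of all genes tested fell and 6.33% rose. They were *na* (-0.63, adjusted p = 0.00470), the sodium leak channel gene *narrow abdomen*, *NaCP60E* (-0.58, adjusted p = 0.00893), a paralog of *para*, *Elk* (-0.53, adjusted p = 0.0253), a relative of *eag*, and *Ca-alpha1T* (-0.38, adjusted p = 0.0256), the T-type calcium channel. *Shawl* (-0.36, adjusted p = 0.0364), a relative of *Shaw*, and *SLO2* (-0.32, adjusted p = 0.0410), a relative of *slo*, completed the 6. In the FLAG IP *KCNQ* (0.42, adjusted p = 0.0202) and *Ih* (0.36, adjusted p = 0.0320), the hyperpolarization-activated cation channel gene, rose, and none fell. A count of 2 in 10 is near the 19.5% of all genes tested that rose. With the replicate block 7 fell with Caper, and 4 rose and 2 fell with FLAG (*Shawl*, -0.24, adjusted p = 0.0165, and *na*, -0.26, adjusted p = 0.0120). The block called 14.8% of all genes lower with Caper, and 29.6% higher and 29.5% lower with FLAG. With length correction 3 of the 10 fell in the Caper IP (*na*, *NaCP60E* and *Elk*), and in the FLAG IP 1 rose (*Ih*) and 3 fell (*na*, *Shawl* and *SLO2*). That correction called 7.78% of all genes lower with Caper, and 19.6% higher and 21.5% lower with FLAG. All p-values here are from edgeR over all genes tested.

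Among 12 genes of accessory subunits and modulators, 4 fell and none rose in the Caper IP, against the same background of 7.53% and 6.33%. These were *unc79* (-0.92, edgeR adjusted p = 0.00249) and *unc80* (-0.75, adjusted p = 0.0171), whose proteins form a complex with the Na channel of *narrow abdomen*, and the calcium channel subunit genes of the alpha2-delta family *stol* (-0.64, adjusted p = 0.00905) and *stj* (-0.54, adjusted p = 0.00806). In the FLAG IP 3 fell, *stol* (-0.59, adjusted p = 0.00137), *unc79* (-0.55, adjusted p = 0.0172) and *stj* (-0.27, adjusted p = 0.0365). A further 3 rose in the FLAG IP. *Teh4* (0.85, adjusted p = 0.000550) and *Teh2* (0.43, adjusted p = 0.00680) encode relatives of TipE, the auxiliary subunit of Para, and *Ca-beta* (0.36, adjusted p = 0.0288) encodes the calcium channel beta subunit. These counts of 3 in 12 are near the background of 20.8% lower and 19.5% higher. With length correction *Ca-beta* no longer passed in the FLAG IP (0.21, adjusted p = 0.0818), and 2 genes rose and 4 fell there. That correction called 19.6% of all genes higher and 21.5% lower with FLAG. With the replicate block 5 fell and *Teh2* rose (0.25, adjusted p = 0.0426) with Caper, where 14.8% of all genes fell and 15.8% rose. In the FLAG IP with the block 4 fell and 3 rose, where 29.5% of all genes fell and 29.6% rose.

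*na*, *unc79* and *unc80*, which act in 1 channel complex, were all called lower in the Caper IP with and without length correction. With FLAG all 3 were called lower with length correction, and *unc79* alone without it. The replicate block, without length correction, also called all 3 lower there (*unc80*, -0.40, edgeR adjusted p = 0.000193). The alpha2-delta genes *stj* and *stol* were called lower in both IPs in each of these fits, so the pattern was not particular to that complex. The test of the difference between the IPs called *Ca-alpha1T* (0.67, adjusted p = 0.0406) and *Teh4* (0.63, adjusted p = 0.0359) among these 22 genes. With the replicate block 6 of the 10 pores and 4 of the 12 accessory genes were called higher in that test and none lower. Of all genes tested, that fit called 6.62% higher and 5.44% lower. With length correction *Teh4* was still called (0.64, edgeR adjusted p = 0.0328) and *Ca-alpha1T* was not.

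Counting error was small for all 10 genes. The lowest count of any of them was 380, for *sei* in an input, at which counting alone gives a coefficient of variation of 5.13%, and the highest was 28258, for *Sh* in Caper IP 1. The 10 genes together took 0.362% to 0.411% of all counts in the FLAG IPs, 0.301% to 0.339% in the FLAG inputs, 0.274% to 0.313% in the Caper IPs and 0.301% to 0.327% in the Caper inputs.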

How the data were processed

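The authors trimmed the reads with fastp (version 0.20.1), mapped them with STAR (2.7.6a) and counted read pairs over the exons of each gene with featureCounts of Subread (2.0.1), with strand and a mapping quality of at least 20. The deposited table holds these raw counts, with no normalization. Symbols come from RefSeq genes matched by position, which named 17129 of 17612 genes and all 10 channels.

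Each IP was compared with its 3 inputs in edgeR 4.0.16 (R 4.3.3), with TMM, the filter on low counts (minimum 10, total 15), the quasi-likelihood test and Benjamini-Hochberg adjustment over all genes tested. A gene was called at an adjusted p below 0.05. The difference between the IPs was fitted on all 12 libraries. DESeq2 1.42.0 was an alternative, with other normalizations, filters, the replicate block, a gene-length correction (a lowess trend of span 0.3 on exon length, as offsets) and each library left out. The edgeR tests of each IP against its inputs, with and without the block, were tested on simulated data. TPM divides counts by exon bases.

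The sample titles name each input by its IP, which pairs them. Deviations from the group means of same-numbered libraries correlated at 0.152 to 0.770 over 11012 genes (6 pairs). The 12 pairings of unlike numbers ran from -0.714 to 0.565, with a median of -0.28. Caper IP 2 correlated more with Caper input 3 (0.565) than with its own input (0.152). Deviations from a group mean cancel within the group, so negative values among the unlike pairings are partly built in. The study's methods name no replicate term, so the main test has no block. Named are all 10 channel genes, and every gene called in either IP from the lists of other channels and accessory subunits. The 10 genes, the lists and the tests were chosen with earlier results of these data known.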

Additional observations from a re-analysis of the deposited data

Results flagged for a closer look

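The difference between the IPs drew attention for 3 channel genes, of which only *Shab* passed its test without the replicate block. The FLAG IP effect minus the Caper IP effect was 0.91 for *Shab*, which passed the edgeR test of the difference (adjusted p = 0.0155). It was 0.53 for *para* and 0.70 for *eag*, for which all 3 FLAG pairs lay above 0 and all 3 Caper pairs below 0. How many of all genes tested share this pattern was not counted. Genes with at least 10000 exon bases, *para* and *eag* among them, had a median log2 fold change of 0.11 with FLAG and -0.19 with Caper. For *para* the log2 ratios of IP to input were 0.31, 0.09 and 0.34 in FLAG pairs 4, 5 and 6, and -0.29, -0.21 and -0.32 in Caper pairs 1, 2 and 3. For *eag* they were 0.23, 0.13 and 0.47 in the FLAG pairs and -0.32, -0.51 and -0.49 in the Caper pairs. The test of the difference did not pass for *para* (edgeR adjusted p = 0.0751) or *eag* (adjusted p = 0.149) without the replicate block, and passed for both with it (0.0129 and 0.00489). *cac* had a difference near that of *para* (0.54, adjusted p = 0.0631 without the block and 0.00885 with it), but its 3 FLAG pairs lay on both sides of 0. With gene-length correction the differences were 0.59 for *Shab*, 0.16 for *para* and 0.41 for *eag*.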

How the results depend on the processing

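The enrichment of *Shab* in the FLAG IP kept its direction and its call in each of the 18 alternatives. The inputs comparison called none of the 10 genes in any of its alternatives. The other counts moved. In the Caper IP 2 genes were called lower, against 4 with DESeq2, 1 with library size only, 1 with no filter, 5 with the replicate block, 1 with gene-length correction, 4 with length correction and block together, and 5 with all 12 libraries in 1 fit. Over all genes tested 7.53% were called lower. The share in these alternatives, in the same order, was 10.6%, 4.95%, 3.56%, 14.8%, 7.78%, 15.7% and 11.4%. Leaving out 1 library, or 1 pair in the paired fit, gave 0 to 7, with 5 without Caper IP 1, 0 without Caper IP 2, Caper input 1 or Caper input 2, 1 without Caper IP 3 or Caper input 3, and 7 without pair 1. The share of all genes called lower in these fits, in the same order, was 11.1%, 2.54%, 1.80%, 0.926%, 3.32%, 2.96% and 15.5%. In the FLAG IP 2 genes were called higher, against 5 with library size only, 1 with no filter, 5 with the replicate block, 1 with length correction and 1 with length correction and block. Over all genes tested 19.5% were called higher there. The share in these alternatives, in the same order, was 24.1%, 12.1%, 29.6%, 19.6% and 29.3%. It was 3 genes each with DESeq2 (20.3% of all genes), at least 10 counts in every library (22.3%) and all 12 libraries in 1 fit (18.6%). None of the 10 genes was called lower, against 1 with the block, 1 with length correction and 1 with both. Over all genes tested 20.8% were called lower in the FLAG IP. The share in these alternatives, in the same order, was 29.5%, 21.5% and 29.6%. The leave-outs gave 1 to 5 higher and 0 to 1 lower. In them 12.5% to 26.2% of all genes were called higher and 14.1% to 27.96% lower. For the difference between the IPs 1 gene was called higher. DESeq2 called 4, and the filter of at least 10 counts in every library 3. The replicate block called 4, length correction 0 and both together 2. Over all genes tested 0.817% were called higher in the difference. The share in these alternatives, in the same order, was 4.13%, 1.73%, 6.62%, 0.581% and 4.02%. The leave-outs gave 0 to 5 of the 10 genes, with 0.00855% to 10.004% of all genes called higher. Besides the values that the block changed beside each result above, it changed no other call of the 10 genes. The ratio of the highest to the lowest mean level in the inputs was 3.46 per exon base and 23.2 in CPM, where long genes count more, and *Sh* then ranked first. The causes of the other moves were not tested.

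Within each IP the sign changed for genes near 0, with length correction among the alternatives where it did. In the difference the sign changed only with length correction. In the Caper IP *Shaw* (0.00) was at -0.013 with DESeq2, -0.013 with RLE normalization, -0.0082 with at least 10 counts in every library, -0.014 with all 12 libraries in 1 fit, and -0.0043 with length correction and -0.0041 with block added. *Shab* (-0.03) was at 0.12 with library size only, 0.0027 with no filter, 0.14 with length correction and 0.14 with block added. In the FLAG IP *sei* (-0.05) was at 0.047 and *Sh* (-0.05) at 0.0485 with library size only. *Hk* (0.00) was at -0.13 with length correction, -0.13 with block added and -0.0081 with all 12 libraries in 1 fit, and *cac* (0.02) at -0.11 with length correction and -0.11 with block added. In the difference, *slo* was at -0.11 with length correction and -0.12 with block added, *Hk* at -0.076 and -0.074, and *Sh* at -0.072 and -0.074. The leave-outs ran from -0.062 to 0.087 for *Shaw* and from -0.10 to 0.053 for *Shab* with Caper, and with FLAG from -0.12 to 0.040 for *sei*, from -0.054 to 0.083 for *Hk*, from -0.040 to 0.068 for *cac* and from -0.11 to 0.032 for *Sh*.

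Each group has 3 libraries, and the main test without the block counts the spread common to an IP and its input as error, so a gene not called is not shown to be unchanged. The counts add up all spliceforms of a gene.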
